A study of Homo sapiens with 6 samples.

Results

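Interferon-stimulated genes are the genes that cells switch on after an interferon binds its receptor, and 38 of them were followed here by symbol among the 61806 rows of the deposited table. Members were taken by gene symbol, with no threshold on a measured value, although the list was drawn up with earlier results of these data known. Each symbol matched 1 row. The data are 6 bulk RNA-seq libraries from HCT116, an established line from a human colorectal carcinoma. By the labels, 3 libraries are controls (si-NC, genotype wildtype) and 3 received RNA interference against STRIP2 (si-STRIP2, genotype STRIP2 knockdown). STRIP2 belongs to STRIPAK, an assembly that holds a phosphatase and kinases together. No interferon treatment is named in the labels, so the levels are those of transfected cells with no named stimulus, as far as the labels tell. No untransfected library is among the 6, so whether si-NC stands at a resting level was not tested. The sequence, dose and exposure time of the short interfering RNAs are not given in the sources used here. Whether the 3 libraries within a group are separate cultures is not stated either, so p-values measure the spread between these libraries, which may be technical. Each library is a bulk sample, in which fewer expressing cells and less RNA per cell cannot be told apart.

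Interferons are secreted proteins that cells make when sensors such as IFIH1 and RIG-I (DDX58) detect viral or other misplaced RNA. Type I interferons bind IFNAR1 and IFNAR2, and type III interferons bind IFNLR1 and IL10RB; the kinases JAK1 and TYK2 then phosphorylate STAT proteins such as STAT2, which together with IRF9 forms part of the complex ISGF3. ISGF3 binds a DNA element, the interferon-stimulated response element, in front of many genes whose products block virus entry, destroy RNA or stop translation. In colorectal epithelium these genes keep a low tonic level without infection.

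Promoter windows of the members were examined first, since the element is what is known to tie these genes together. RefSeq windows on GRCh38.p14, each 300 bases long from 250 before to 50 after an annotated start, were available for 31 of the 38 genes. IFIT2, IRF7, MX2, OAS2, OASL, TRIM22 and USP18 had no entry. The core letters of the element, GAAANNGAAA, were searched on both strands (TTTCNNTTTC on the other), and matches that overlap one another were kept. At least 1 match was found in 21 of the 31 genes. Counted by window, 25 of 42 member windows held a match (59.5%), against 1255 of all 35116 promoter windows (3.57%). A match is a description of letters, not a bound site.

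The sequences below were chosen because they hold the same letters, on either strand, before or across the start of genes that behaved differently in the libraries. The strand of the letters was not compared with the calls. Among genes not shown, IFI44, IFIT3 and PARP9 were called lower and held TTTC matches only. IFIH1, which was not called, held both forms. SAMD9, BST2, DTX3L and ISG15 were lower in si-STRIP2 cells (values below), and IFIT1, IFIT5, HERC5 and LGALS3BP were not called. Each is written 5′ to 3′ on the strand of its gene, and capitals mark the GAAA or TTTC letters of each match.
SAMD9 (chr7:93118096-93118125, minus strand): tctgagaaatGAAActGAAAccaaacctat
BST2 (chr19:17405735-17405770, minus strand): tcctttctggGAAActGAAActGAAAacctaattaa
DTX3L (chr3:122564322-122564351, plus strand): ccagggaagcGAAActGAAActttgcgccc
ISG15 (chr1:1013374-1013409, plus strand): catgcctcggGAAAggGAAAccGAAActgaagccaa
IFIT1 (chr10:89392497-89392539, plus strand): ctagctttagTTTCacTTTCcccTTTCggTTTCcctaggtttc
IFIT5 (chr10:89414513-89414583, plus strand): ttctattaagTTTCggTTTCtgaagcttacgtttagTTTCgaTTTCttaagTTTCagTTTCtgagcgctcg
HERC5 (chr4:88456984-88457064, plus strand): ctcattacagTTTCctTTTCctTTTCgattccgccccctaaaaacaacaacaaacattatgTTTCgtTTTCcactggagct
LGALS3BP (chr17:78979962-78979991, minus strand): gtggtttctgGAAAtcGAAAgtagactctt

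BST2, ISG15 and HERC5 each carry overlapping matches that share 4 bases. The DTX3L match is the same 30 bases that, read on the other strand, lie in a promoter window of PARP9, its divergent neighbour. Of the 19 tested genes with a match, 14 were called lower (edgeR, adjusted p under 0.05) and 5 were not called, where 27.0% of all tested genes were called lower. Of the 8 tested genes with a window but no match, 5 were called lower, 1 higher and 2 were not called. No match was found in the windows of CMPK2, HERC6, IFI35, IRF1, IRF9, OAS1, SAMD9L, STAT2, UBE2L6 and XAF1, which says only that these letters are not in these windows.

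Total counts ranged from 17184963 to 21721218 per library. STRIP2, the targeted gene, had FPKM values (counts scaled to exonic length and library total) of 3.19, 3.77 and 3.81 in si-NC and 2.71, 2.53 and 2.58 in si-STRIP2. These groups did not overlap, 72.6% of the control level remained, and the log2 difference was -0.46 (standard error 0.083, edgeR adjusted p = 1.62e-05). Of the epithelial markers, EPCAM, KRT8, KRT18 and KRT19 were at 122 FPKM or more in every library, while VIL1 and LGALS4 had at most 5 counts. Of the 7 epithelial markers tested, 4 were called lower and 2 higher, with log2 differences of -0.60 for CDH1, -1.01 for KRT20, -0.18 for KRT18, -0.11 for EPCAM, 0.38 for CDX2 and 0.22 for KRT19. None of the 9 leukocyte markers had enough counts to be tested, and their summed level was 0.49 to 0.71 FPKM in si-NC and 0.40 to 0.73 FPKM in si-STRIP2. Among the plasmacytoid dendritic cell markers, CLEC4C, LILRA4 and GZMB were at 0 in every library. IL3RA, the other marker of that list, had 7, 3 and 5 counts in si-NC and 5, 5 and 4 counts in si-STRIP2, too few to test. Fibroblast markers summed to 2.22 to 2.68 FPKM in si-NC and 1.94 to 2.2 FPKM in si-STRIP2, nearly all of it COL1A1. KDR, an endothelial marker, was lower in si-STRIP2 (41, 40 and 40 counts against 16, 19 and 20; edgeR adjusted p = 0.000528), with PECAM1, VWF and CDH5 at or under 15 counts in every library. The part of these markers in the results was not tested.

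Levels of the members spanned a wide range. LGALS3BP, a secreted glycoprotein, was the most abundant at 47.0 FPKM averaged over the 6 libraries, followed by ISG15 at 16.8, EIF2AK2 at 11.1 and IFIT5 at 10.1 FPKM. At the other end, IFI44L and XAF1 had no count in any library, which at this depth allows up to 0.0150 FPKM for IFI44L and 0.0264 FPKM for XAF1 (the limit set by 3 counts, counting error only). MX2 had a single count, in si-NC replicate 1. In all, 32 of the 38 genes had enough counts to be tested, and OAS2, RSAD2, SAMD9L, MX2, IFI44L and XAF1 did not.

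**Figure D1:**
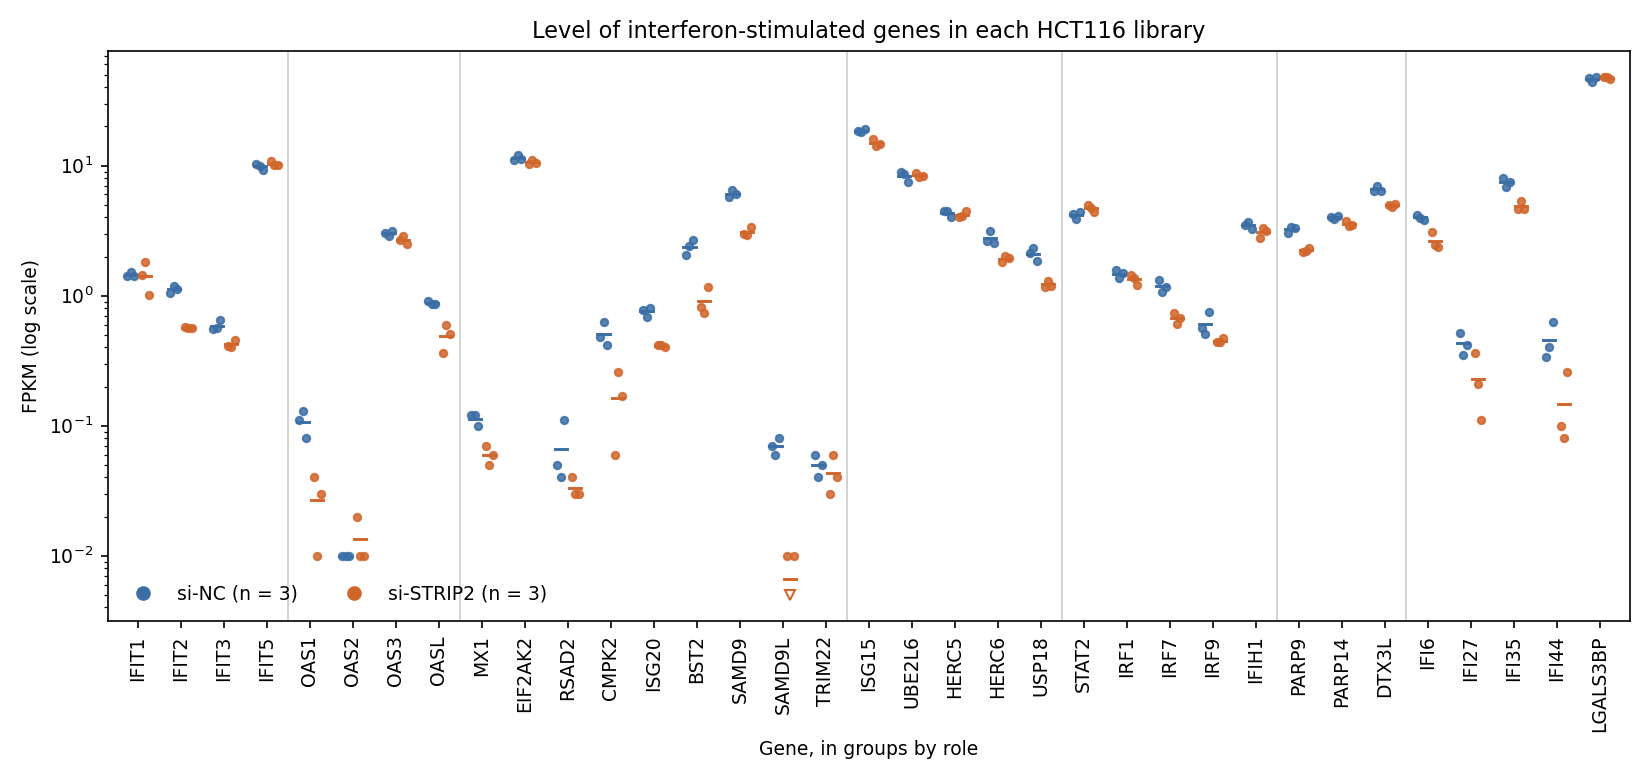
FPKM (log scale) of the 35 interferon-stimulated genes with more than 5 counts in all, by library; points are libraries, short lines are group means (n = 3), grey lines separate groups of genes by role, and an open triangle marks a library at 0 (SAMD9L, si-STRIP2). Orange points lie below blue points for OAS1, CMPK2, BST2 and SAMD9, and the colours mix for LGALS3BP, IFIT1 and UBE2L6.

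Most of the tested genes were lower after the STRIP2 short interfering RNA. With a threshold of 0.05 on the adjusted p of edgeR's quasi-likelihood test over 15687 genes, 24 of the 32 were called, 23 lower and 1 higher, where 54.8% of all tested genes were called, 27.0% lower and 27.8% higher. In 22 of the 32, every FPKM value of one group lay beyond those of the other, against 58.6% of all tested genes. The median log2 difference (si-STRIP2 minus si-NC) was -0.50 for the 32 and 0.014 for all genes tested. A fall of at least 2-fold was called for 4 of the 32 (OAS1, CMPK2, IFI44 and BST2) and for 2.91% of all genes tested. These counts leave out the genes too low to test, and 5 of the 32 (IFI27, IFI44, OAS1, CMPK2 and TRIM22) passed the count filter with fewer than 3 si-STRIP2 libraries above its limit. OAS1, CMPK2 and IFI44, of the 4 with a fall of at least 2-fold, are among these 5. Their si-NC libraries were enough to meet the filter, which favours a large fall, so the count of 4 is no support for one. BST2 had all 3 si-STRIP2 libraries above the limit. A gene carried past the filter by the si-NC group alone, as IFI44 was, had to be lower in si-STRIP2.

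**Figure D2:**
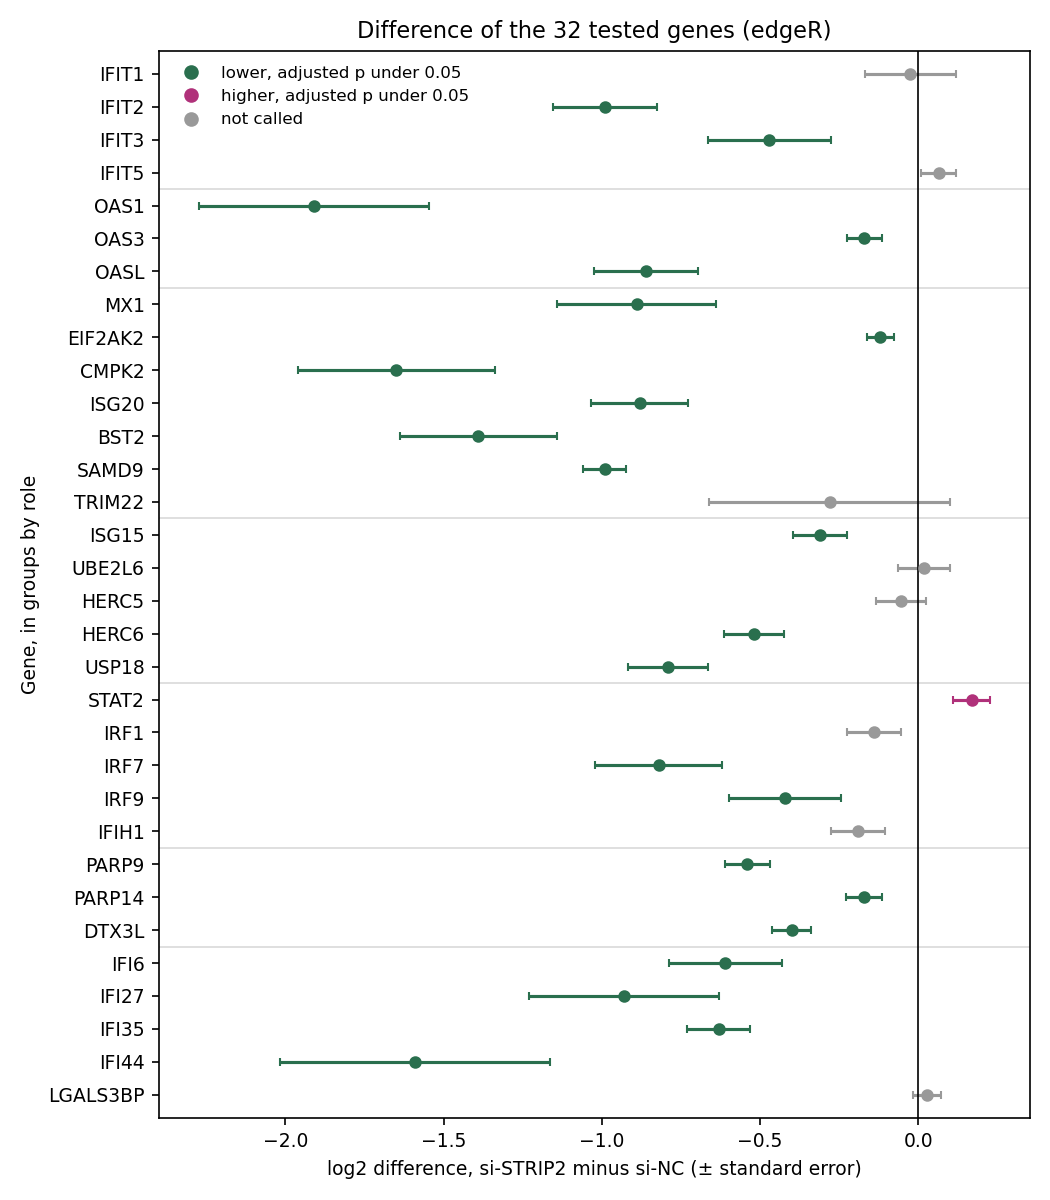
Log2 difference, si-STRIP2 minus si-NC, of the 32 tested genes with its standard error (edgeR), in groups by role. The 23 genes called lower are green, STAT2, called higher, is magenta, and the 8 genes that were not called are grey and lie between -0.28 and 0.065.

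The shift was alike in the 3 si-STRIP2 libraries. Measured against the si-NC mean of each gene, the median of the 32 genes was -0.47, -0.46 and -0.48 (log2) in si-STRIP2 replicates 1, 2 and 3. It was 0.027, -0.012 and -0.0090 in the si-NC libraries. Of the 32 genes, 28, 27 and 27 lay below the si-NC mean in the si-STRIP2 libraries, and 13, 16 and 17 did in the si-NC libraries. Such counts were not made for all tested genes, so they have no background here. The median log2 difference of all tested genes was 0.014. The 32 include the genes, given above, that passed the filter with fewer than 3 si-STRIP2 libraries above its limit. The si-NC values lie around 0 by construction, because the same 3 libraries make up that mean.

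Genes at low levels held the larger differences. Among the 12 tested members with a mean under 1 FPKM over all libraries, 11 were called lower and the median log2 difference was -0.88, where 19.1% of all tested genes at that level were called lower. Among the 13 at 1 to 5 FPKM, 8 were called lower (all genes, 24.4%) and the median was -0.19. Among the 7 with at least 5 FPKM, 4 were called lower (all genes, 33.5%) and the median was -0.12. The medians of all tested genes in these bands were -0.020, 0.024 and 0.018. The count filter bears most on the lowest band, as given above.

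**Figure D3:**
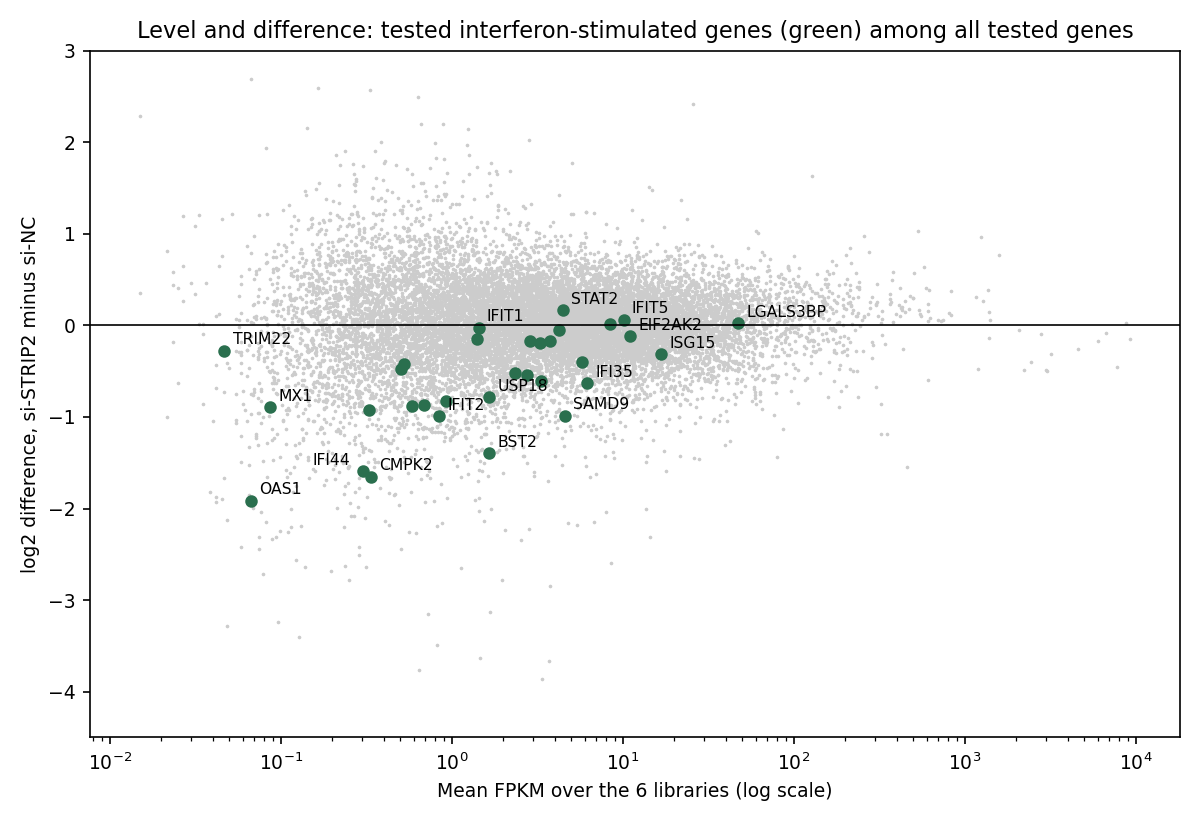
Mean FPKM over the 6 libraries (log scale) against the log2 difference, si-STRIP2 minus si-NC, for all tested genes (grey; 3 lie outside the plotted range) and the 32 tested interferon-stimulated genes (green, 16 named). The green points run from OAS1 at -1.91 at low level to LGALS3BP at 0.028 at the highest level.

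The IFIT proteins bind foreign RNA or viral proteins and block translation, and their genes lie side by side on chromosome 10 (IFIT2 from 89283694 to IFIT5 ending at 89421605, plus strand, GRCh38.p13). IFIT2 (ENSG00000119922) had FPKM values of 1.05, 1.18 and 1.13 in si-NC and 0.57, 0.56 and 0.56 in si-STRIP2. No si-STRIP2 library reached the lowest control, and IFIT2 fell by 0.99 on the log2 scale (standard error 0.164, edgeR adjusted p = 4.24e-06). IFIT3, its partner in complexes, had 0.55, 0.56 and 0.65 FPKM in si-NC and 0.41, 0.40 and 0.46 FPKM in si-STRIP2. The groups of IFIT3 did not overlap and its log2 difference was -0.47 (standard error 0.194, edgeR adjusted p = 0.0372). That call rested on all but 1 of the libraries: leaving out any one other than si-STRIP2 replicate 3 gave adjusted p-values from 0.0528 to 0.124. IFIT1, which recognises capped RNA lacking a methyl mark, had 1.42, 1.51 and 1.41 FPKM in si-NC and 1.45, 1.81 and 1.01 FPKM in si-STRIP2. Its si-STRIP2 libraries lay on both sides of the controls (log2 difference -0.025, standard error 0.144, edgeR adjusted p = 0.897), and without si-STRIP2 replicate 3 the difference was 0.16. IFIT5, the most abundant of the family, was at 9.86 ± 0.499 FPKM in si-NC and 10.4 ± 0.514 FPKM in si-STRIP2 (SD, n = 3), with overlapping groups and an edgeR adjusted p of 0.331. In the deposited coordinates LIPA, on the opposite strand, overlaps IFIT1, IFIT2 and IFIT3. LIPA held 1047% to 2718% as many counts, and its own log2 difference was -0.27 (edgeR adjusted p = 2.59e-05). Whether strand was used in counting is not given in the sources used here; in GENCODE 29 the exons of LIPA cover 1.58% of the exon bases of IFIT2 and 0% of those of IFIT1 and IFIT3.

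The OAS enzymes make oligoadenylates when they bind double-stranded RNA, which sets off RNA decay. OAS1 (ENSG00000089127, chromosome 12, 112905856 to 112933219) had 31, 30 and 19 counts in si-NC and 11, 3 and 6 counts in si-STRIP2. All si-STRIP2 counts were below the lowest control count, at 25.9% of the control level, and OAS1 fell by 1.91 on the log2 scale (standard error 0.364, edgeR adjusted p = 3.48e-05). OAS3, next to it and far more abundant, had 3.06, 2.86 and 3.15 FPKM in si-NC and 2.67, 2.89 and 2.50 FPKM in si-STRIP2. The groups of OAS3 overlapped and its log2 difference of -0.17 passed the test (edgeR adjusted p = 0.00825), but not without si-STRIP2 replicate 3 (-0.13, adjusted p = 0.0735). OAS2, between 1 and 4 counts in every library, was not tested. OASL, an OAS relative without enzyme activity that aids RIG-I, lies apart on the same chromosome. It fell from 0.880 ± 0.0265 to 0.490 ± 0.121 FPKM (SD, n = 3; log2 difference -0.86, edgeR adjusted p = 3.13e-05), and no library of one group reached the other.

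Among the other antiviral effectors, SAMD9, a restriction factor of poxviruses, had the smallest adjusted p of all 32 genes. SAMD9 (ENSG00000205413, chromosome 7, 93099513 to 93118023, minus strand) had 5.74, 6.51 and 6.03 FPKM in si-NC and 2.96, 2.94 and 3.35 FPKM in si-STRIP2. Every si-STRIP2 library was far below every control, and the log2 difference was -0.99 (standard error 0.068, edgeR adjusted p = 2.83e-14). Its paralog SAMD9L, the next gene on that strand, had 13, 8 and 11 counts in si-NC and 1, 0 and 1 counts in si-STRIP2. These counts were too low for the filter; their summed ratio was 6.57% of the control level (exact 95% interval 0.763% to 25.7%, counting error only), and without the filter the edgeR adjusted p was 1.43e-05.

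BST2, also called tetherin, holds budding virus particles at the cell surface. It had 2.05, 2.41 and 2.70 FPKM in si-NC and 0.82, 0.73 and 1.16 FPKM in si-STRIP2 (49, 46 and 51 counts against 17, 14 and 22). The groups were well apart, with a 2.62-fold lower level (log2 difference -1.39, standard error 0.247, edgeR adjusted p = 1.28e-05). ISG20, an RNA exonuclease, had 0.78, 0.68 and 0.81 FPKM in si-NC and 0.42, 0.42 and 0.40 FPKM in si-STRIP2, without overlap (log2 difference -0.88, edgeR adjusted p = 1.05e-05). MX1, a dynamin-like GTPase that traps viral nucleoproteins, had 47, 37 and 31 counts in si-NC and 25, 15 and 19 counts in si-STRIP2. MX1 fell by 0.89 on the log2 scale (edgeR adjusted p = 0.00324). EIF2AK2 encodes the kinase PKR, which stops translation when it binds double-stranded RNA. It had 11.11, 12.17 and 11.30 FPKM in si-NC and 10.31, 11.03 and 10.56 FPKM in si-STRIP2, a gap of less than the range within either group. GPATCH11, which overlaps it on the opposite strand, held 23.2% as many counts and had a log2 difference of 0.058 (edgeR adjusted p = 0.554). The EIF2AK2 log2 difference of -0.12 passed the test (edgeR adjusted p = 0.0204), but not without si-NC replicate 2 (0.115), si-STRIP2 replicate 1 (0.135) or si-STRIP2 replicate 3 (0.0515). TRIM22, a ubiquitin ligase, had 7 to 17 counts per library and overlapping groups (edgeR adjusted p = 0.558).

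CMPK2, a mitochondrial nucleotide kinase, and RSAD2, which encodes the nucleotide-modifying enzyme viperin, lie head to head on chromosome 2, with spans that overlap in the deposited coordinates. CMPK2 had 46, 48 and 32 counts in si-NC and 5, 20 and 13 in si-STRIP2. The spread within si-STRIP2 was wide, yet no library reached the controls (log2 difference -1.65, standard error 0.311, edgeR adjusted p = 3.07e-05). Viperin transcripts stood at 6, 4 and 11 counts in si-NC and 4, 3 and 3 in si-STRIP2, too few to test. The summed ratio for RSAD2 was 50.1% of control with an exact 95% interval of 21.0% to 111%.

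ISG15 is a ubiquitin-like protein that is joined to other proteins by a chain of enzymes: UBA7 activates it, UBE2L6 carries it, HERC5 attaches it and USP18 removes it. ISG15 had 18.4, 18.3 and 19.1 FPKM in si-NC and 16.1, 14.1 and 14.7 FPKM in si-STRIP2. The groups did not overlap, and the log2 difference was -0.31 (standard error 0.086, edgeR adjusted p = 0.00251). USP18, which also dampens signalling at IFNAR2, had 2.11, 2.33 and 1.85 FPKM in si-NC and 1.17, 1.30 and 1.19 FPKM in si-STRIP2. That is 58.2% of control, and USP18 fell by 0.79 on the log2 scale (standard error 0.126, edgeR adjusted p = 2.55e-06); its near copy USP41 had at most 2 counts in any library. The conjugating enzymes UBE2L6 and HERC5 were not called. UBE2L6 was at 8.29 ± 0.773 FPKM in si-NC and 8.45 ± 0.340 FPKM in si-STRIP2 (edgeR adjusted p = 0.863), and HERC5 at 4.32 ± 0.272 and 4.19 ± 0.265 FPKM (SD, n = 3; edgeR adjusted p = 0.581). UBA7 had 11, 4 and 3 counts in si-NC and 14, 9 and 14 counts in si-STRIP2, with overlapping groups, and did not pass the filter. Without the filter its log2 difference was 1.10 (edgeR adjusted p = 0.0587). HERC6, the neighbour of HERC5 on chromosome 4, had 2.61, 3.15 and 2.54 FPKM in si-NC and 1.82, 2.01 and 1.96 FPKM in si-STRIP2. HERC6 fell by 0.52 on the log2 scale (edgeR adjusted p = 1.87e-05), with no overlap; the difference between HERC5 and HERC6 was not tested.

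**Figure D4:**
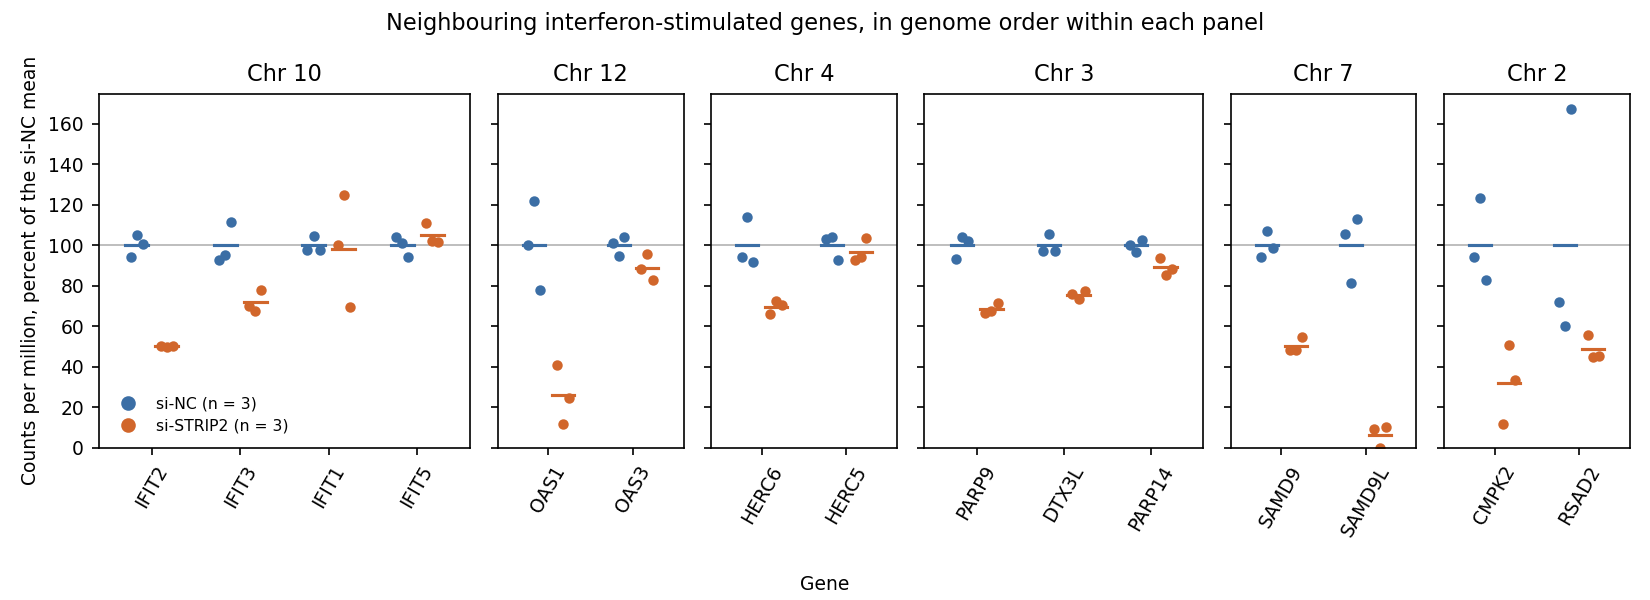
CPM (counts scaled to the library total) of neighbouring interferon-stimulated genes as a percentage of the si-NC mean, in genome order within each chromosome panel; points are libraries and short lines group means (n = 3). IFIT2 stands at 50.2% of control beside IFIT5 at 105%, OAS1 at 25.9% beside OAS3 at 89.0%, and HERC6 at 69.8% beside HERC5 at 96.8%; SAMD9L and RSAD2 rest on few counts.

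PARP9 and DTX3L work as a complex that modifies histones, and PARP14 is a related ADP-ribosyltransferase nearby on chromosome 3. PARP9 had 3.05, 3.40 and 3.34 FPKM in si-NC and 2.18, 2.21 and 2.33 FPKM in si-STRIP2. DTX3L had 6.38, 6.92 and 6.37 FPKM in si-NC and 4.98, 4.82 and 5.09 FPKM in si-STRIP2. Neither pair of groups overlapped, with log2 differences of -0.54 for PARP9 and -0.40 for DTX3L (edgeR adjusted p = 5.83e-08 and 9.74e-07). The genes overlap on opposite strands, where exons of DTX3L cover 2.43% of the exon bases of PARP9 in GENCODE 29. PARP14 went from 3.99 ± 0.116 to 3.56 ± 0.169 FPKM (SD, n = 3; log2 difference -0.17, edgeR adjusted p = 0.0125), and it did not pass with si-STRIP2 replicate 2 left out (adjusted p = 0.0716).

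Of the transcription factors, IRF7 and IRF9 were called lower and STAT2 higher. Only the IRF7 call held in every alternative fit that tested it. IRF7, the factor that amplifies type I interferon production, had 1.32, 1.06 and 1.16 FPKM in si-NC and 0.73, 0.61 and 0.67 FPKM in si-STRIP2. Its groups were apart, and IRF7 fell by 0.82 on the log2 scale (standard error 0.201, edgeR adjusted p = 0.000774). IRF9, the DNA-binding part of ISGF3, was at 0.607 ± 0.127 FPKM in si-NC and 0.450 ± 0.0173 FPKM in si-STRIP2 (SD, n = 3). Its log2 difference of -0.42 passed narrowly (edgeR adjusted p = 0.0419) and passed in only 1 of the 6 fits that leave out a library, the one without si-NC replicate 2; the other fits gave adjusted p-values from 0.0525 to 0.252. STAT2, the other ISGF3 part on the list, was the gene called higher, with 4.21, 3.92 and 4.42 FPKM in si-NC and 4.96, 4.72 and 4.43 FPKM in si-STRIP2. The STAT2 groups touched without overlap (log2 difference 0.17, edgeR adjusted p = 0.0149), and the call was lost without si-NC replicate 2 (0.122) or si-STRIP2 replicate 1 (0.0887). IRF1, which answers mainly to interferon gamma, had overlapping groups at 1.48 ± 0.111 and 1.34 ± 0.122 FPKM (edgeR adjusted p = 0.155). IFIH1, the RNA sensor MDA5, had 3.5, 3.7 and 3.25 FPKM in si-NC and 2.78, 3.30 and 3.12 FPKM in si-STRIP2. The IFIH1 difference of -0.19 missed the threshold (edgeR adjusted p = 0.0564) and passed it without si-NC replicate 3 (0.0249) or si-STRIP2 replicate 2 (0.0316). With all libraries kept, IFIH1 passed under median-ratio scaling (0.0481) and with genes of at least 1 FPKM only (0.0381).

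The remaining members carry IFI names or no shared role. IFI35, a protein that binds the factor NMI, had 8.09, 6.87 and 7.46 FPKM in si-NC and 4.60, 5.35 and 4.66 FPKM in si-STRIP2. With no overlap, IFI35 fell by 0.63 on the log2 scale (standard error 0.099, edgeR adjusted p = 1.75e-06). IFI6, a membrane protein that limits flavivirus replication, had 4.18, 3.95 and 3.85 FPKM in si-NC and 3.07, 2.44 and 2.36 FPKM in si-STRIP2 (log2 difference -0.61, edgeR adjusted p = 0.00441). IFI27 had 47, 25 and 30 counts in si-NC and 28, 15 and 8 counts in si-STRIP2, with overlapping groups. The IFI27 log2 difference of -0.93 (edgeR adjusted p = 0.00932) did not pass without si-NC replicate 1 (-0.74, 0.0863) or without si-STRIP2 replicate 3 (-0.62, 0.0887), and was -1.43 without si-STRIP2 replicate 1. IFI44 rested on 15, 14 and 22 counts in si-NC and 4, 3 and 9 counts in si-STRIP2, which did not overlap. Its log2 difference was -1.59 (standard error 0.427, edgeR adjusted p = 0.00203) and -2.21 without si-STRIP2 replicate 3. LGALS3BP, at 46.5 ± 2.28 FPKM in si-NC and 47.6 ± 0.676 FPKM in si-STRIP2 (SD, n = 3), had overlapping groups (log2 difference 0.028, edgeR adjusted p = 0.604).

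What the members share in annotation was read from the deposited gene ontology terms. Defense response to virus was attached to 26 of the 38, a term held by 320 genes in all, 134 of them tested. Response to virus was attached to 18 of the 38 (172 genes in all, 83 tested). Negative regulation of viral genome replication was attached to 13 of the 38 (66 genes in all, 35 tested). The terms that name interferon signalling were attached to few members. Type I interferon signaling pathway was held by 4 of the 38 (35 genes in all, 16 tested). Interferon-gamma-mediated signaling pathway was held by 1 of the 38 (7 genes in all, 4 tested).

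Upstream of the response, the interferons themselves were at or near 0. Of 12 interferon genes examined, 7 had no count and 11 had at most 3 counts in every library, which cannot be told from 0 at this depth. IFNE, an interferon of epithelia, was the exception, with 2, 1 and 0 counts in si-NC and 6, 7 and 0 counts in si-STRIP2, and its groups overlapped. IFNB1 had 2, 1 and 0 counts in si-NC and none in si-STRIP2.

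Receptors and signal carriers were expressed, and most of those called were lower in si-STRIP2. Of 19 such genes in the table, 18 were tested, 10 were called lower and 4 higher, against 27.0% and 27.8% of all genes. IFNAR1 had 6.03, 6.38 and 5.84 FPKM in si-NC and 4.68, 4.71 and 4.63 FPKM in si-STRIP2, so that the groups were well apart (log2 difference -0.38, edgeR adjusted p = 7.24e-09). IFNAR2, its partner, had 69 to 82 counts per library and was not called (log2 difference 0.15, standard error 0.158, edgeR adjusted p = 0.421). IFNLR1 fell from 3.35 ± 0.126 to 2.69 ± 0.223 FPKM (edgeR adjusted p = 0.00232). IFNGR1, the ligand-binding chain for interferon gamma, fell from 23.1 ± 0.216 to 14.4 ± 0.279 FPKM (SD, n = 3; log2 difference -0.69, edgeR adjusted p = 1.11e-14). JAK1 had 12.3, 13.2 and 12.3 FPKM in si-NC and 9.82, 9.36 and 9.83 FPKM in si-STRIP2, a log2 difference of -0.39 (edgeR adjusted p = 9.98e-10).

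Among the signalling genes that moved the other way, IRF2, a repressor at the same DNA element, rose from 1.09 ± 0.133 to 1.62 ± 0.151 FPKM (SD, n = 3; log2 difference 0.58, edgeR adjusted p = 3.41e-05). Its corepressor IRF2BP2 fell by 0.57 on the log2 scale (edgeR adjusted p = 1.08e-12). PTPN2, a phosphatase of JAK and STAT proteins, was higher by 0.21 (edgeR adjusted p = 0.000254), and was named after its value was seen. Of the other negative regulators on the list, also named after their values were seen, SOCS1 was lower, with 15, 13 and 10 counts in si-NC and 5 counts in each si-STRIP2 library (log2 difference -1.25, edgeR adjusted p = 0.0118). SOCS1 passed the filter through the si-NC libraries alone, and it missed the threshold by DESeq2 (adjusted p = 0.0733). PIAS1 was lower (log2 difference -0.20, edgeR adjusted p = 0.00133), and SOCS3 was not called (-0.11, edgeR adjusted p = 0.386). PTPN11, another phosphatase on the list and also named after its value was seen, was lower (log2 difference -0.21, edgeR adjusted p = 0.000123). TYK2 and IFNGR2, the latter also named after its value was seen, were higher by 0.17 and 0.14 (edgeR adjusted p = 0.0340 and 0.0250). Both calls were lost in 4 of the 6 fits that leave out a library, with adjusted p-values of 0.117 to 0.187 for TYK2 (without si-NC replicate 1 or 2 or si-STRIP2 replicate 1 or 2) and 0.0552 to 0.0954 for IFNGR2 (without si-NC replicate 1 or 3 or si-STRIP2 replicate 1 or 3).

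**Figure D5:**
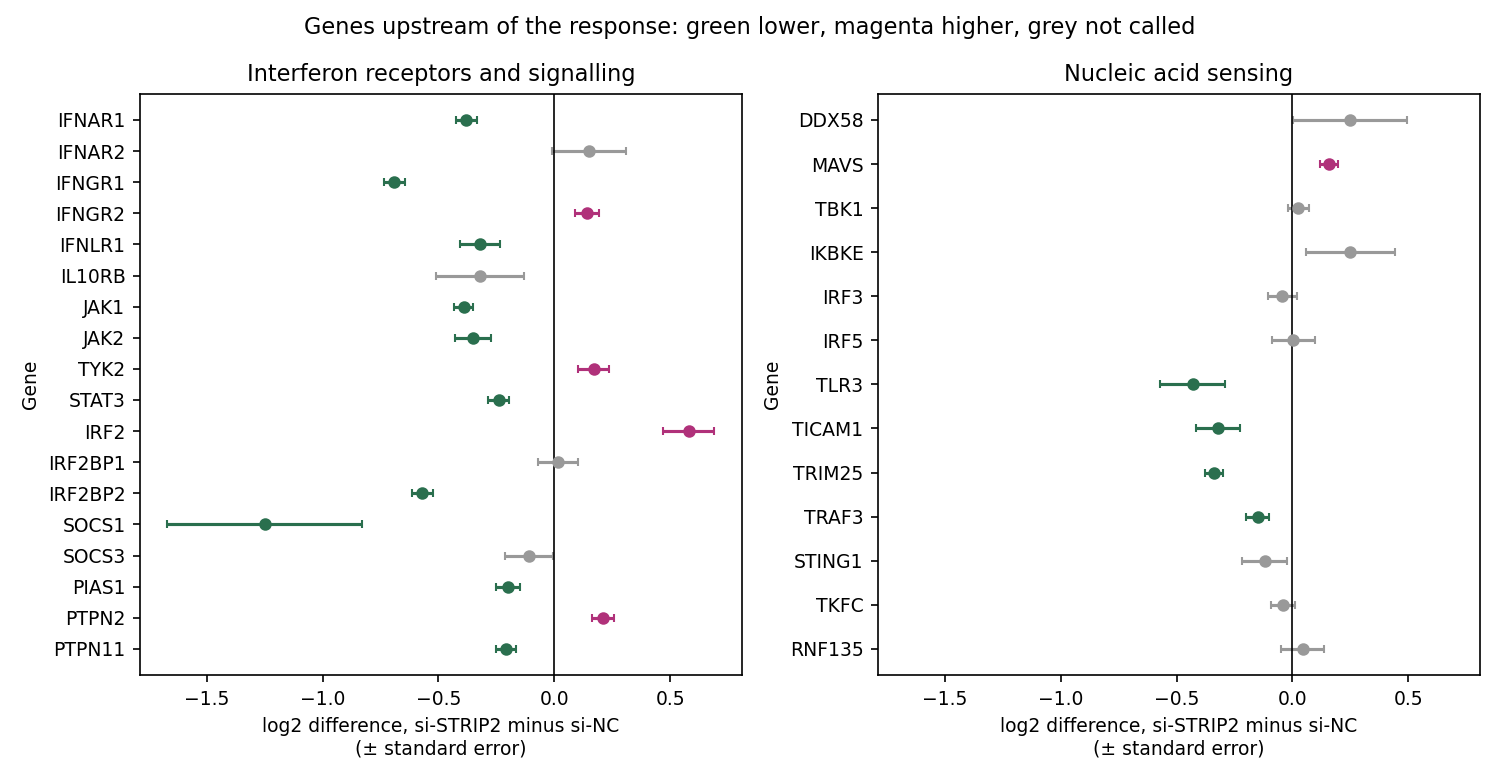
Log2 difference, si-STRIP2 minus si-NC, with its standard error (edgeR) for the tested genes of interferon receptors and signalling (left, 18 genes) and of nucleic acid sensing (right, 13 genes). Green marks genes called lower (10 and 4), magenta genes called higher (4 and 1), grey genes not called.

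Next came the sensors and adaptors that lead to interferon. Of 18 such genes in the table, 13 were tested, 4 were called lower and 1 higher, against 27.0% lower and 27.8% higher among all genes tested. The genes called, listed after their values were seen, were TRIM25, a ubiquitin ligase that activates RIG-I (log2 difference -0.34), TLR3, an endosomal RNA receptor (-0.43), its adaptor TICAM1 (-0.32) and the ubiquitin ligase TRAF3 (-0.15), which were lower. MAVS, the mitochondrial adaptor of RIG-I and IFIH1, was higher (0.16). RIG-I itself (DDX58), also named after its value was seen, had 23 to 34 counts per library and overlapping groups. It was not called (log2 difference 0.25, standard error 0.247, edgeR adjusted p = 0.397). With si-STRIP2 replicate 2 left out TLR3 did not pass (edgeR adjusted p = 0.0530), nor did TRAF3 with si-NC replicate 1 left out (0.134). IRF3, the factor that these sensors activate, was at 10.5 ± 0.983 FPKM in si-NC and 10.2 ± 0.222 FPKM in si-STRIP2 (SD, n = 3), with overlapping groups (edgeR adjusted p = 0.567). CGAS had at most 3 counts in any library, and AIM2 and ZBP1 had none.

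A further list held 49 interferon-stimulated genes outside the members. Of these, 43 were tested, 18 were called lower and 10 higher, against 27.0% and 27.8% of all genes tested. The median log2 difference was -0.10, and 0.014 for all genes tested. LAMP3, a lysosomal membrane protein, fell from 8.11, 7.71 and 7.58 FPKM to 1.84, 1.89 and 1.53 FPKM, the largest change of those named (log2 difference -2.15, standard error 0.090, edgeR adjusted p = 5.46e-20). APOL6, an apolipoprotein L, had 2.2, 2.26 and 2.1 FPKM in si-NC and 0.57, 0.80 and 0.66 FPKM in si-STRIP2 (log2 difference -1.70, edgeR adjusted p = 5.38e-16). PLSCR1, PARP12 and TMEM62 were lower by 0.58, 0.59 and 0.59 on the log2 scale (edgeR adjusted p at most 1.92e-07). MOV10, an RNA helicase that restricts retroelements, rose from 6.88 ± 0.375 to 9.89 ± 0.475 FPKM (SD, n = 3; log2 difference 0.52, edgeR adjusted p = 3.42e-11).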

How the data were processed

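Total RNA was poly(A)-selected and made into directional libraries, per the labels' protocols. The submitters' processing notes name cutadapt 1.9.1, HISAT2 2.2.1, HTSeq 0.6.1 and GRCh38.p13, with no role or order. The authors deposited 1 table with raw counts and FPKM per gene and library; the deposited FPKM differed by at most 0.005 from values recomputed from count, exonic size and column total. The annotation release and the strand setting are not given in the sources used here. Gene positions are those of the table.

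All 61806 rows entered edgeR 4.0.16 in R 4.3.3: filterByExpr (minimum count 10, which left 15687 genes with 99.84% of counts), TMM scaling, a quasi-likelihood fit on group, a 2-sided F test and Benjamini-Hochberg adjustment over all genes tested. Standard errors are the absolute log2 difference divided by the square root of F. FPKM values are the deposited ones; percentages of control are from CPM computed on the counts. The procedure was tested on simulated data. Alternatives used DESeq2 1.42.0 and limma 3.58.1, other filters and scalings, the replicate number as a block, and each library left out.

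The members, gene lists and tests were chosen with earlier results of these data known. All 38 members are covered. From each pathway list the text names called genes, at most 6 by adjusted p. These have an absolute log2 difference of at least 0.5 and at least 1 FPKM in the higher group. It also names ligands above 3 counts, and IFNAR1, IFNAR2, IFNLR1, JAK1, TYK2, IRF3 and UBA7. Others are marked, except IFNB1, CGAS, AIM2 and ZBP1, which were also named outside this rule. Some genes of the pathway lists are not reported here and were left out of the lists' counts. No set test was run.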

Additional observations from a re-analysis of the deposited data

How the results depend on the processing

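Of the 24 called genes, 15 stayed called in the same direction in each of the 15 alternatives that tested them, and no called gene changed sign. With genes of at least 1 FPKM only, 20 of the 38 were tested, by construction of the filter. Of these 20, 14 were called and 13 were lower, where 7362 genes were called in all. In the main fit, 33.5% of all tested genes with at least 5 FPKM were called lower. At 1 to 5 FPKM the share was 24.4%. IFIH1 gained a call (edgeR adjusted p = 0.0381). The median log2 difference of the 20 was -0.20. Against a 1.2-fold change in place of no change, 17 members were called, with 3723 genes in all, 16 of the other interferon-stimulated genes, 6 receptor and signalling genes and 1 sensing gene. The members that lost their calls in that test were ISG15 (edgeR adjusted p = 0.301), IFIT3, OAS3, EIF2AK2, STAT2, IRF9 and PARP14. The members' median was -0.19 by limma on log2(FPKM + 1) and -0.40 with a pseudocount of 0.1, which shrink low genes, -0.51 by DESeq2, -0.50 with median-ratio scaling and -0.53 with no filter, and -0.55 to -0.47 with each library left out. By DESeq2, IFIT3, IRF9 and STAT2 lost their calls (adjusted p = 0.11, 0.11 and 0.0595). By limma with either pseudocount, OAS3, EIF2AK2, STAT2, IRF9 and PARP14 lost theirs (adjusted p from 0.0686 to 0.127), and MX1 did with the pseudocount of 1 (0.114). Members called ranged from 21 to 23 with each library left out, and genes called in all from 7690 to 8494. Uncalled genes that changed sign were IFIT1 (0.16 with si-STRIP2 replicate 3 left out; range over the libraries left out -0.23 to 0.16), UBE2L6 (-0.054 with si-NC replicate 3 out, -0.0056 with si-STRIP2 replicate 1 out; -0.054 to 0.081), LGALS3BP (-0.020 with si-NC replicate 2 out; -0.020 to 0.052) and IRF3 (0.019 with si-NC replicate 3 out; -0.11 to 0.019). The cause was not tested.

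The replicate numbers are no sign of pairing in the labels, and the deviations of same-numbered libraries correlated at -0.086, -0.013 and -0.072 across genes. With the replicate block, 24 members were called, 23 of them lower, and 8293 genes in all. The tested members with the largest standard errors (IFI44, TRIM22, OAS1, CMPK2, IFI27 and MX1; 0.252 to 0.427) had under 50 counts in every library.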
